A study of Mus musculus with 12 samples.

Results

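The genes described here are 45 genes of skeletal muscle: the sarcomere's thick and thin filaments, its Z-disc and scaffold, calcium handling, energy supply, and protein turnover. They were chosen by name among the 23282 entries of the count tables, after a comparison of the same mice had shown lower levels for part of them. Every value of HF + AD against AD below is thus a description of selected genes. Where a call or an adjusted p of the fit across all genes is given, it is a description too and not a test of the selected genes. Skin RNA of 12 wild-type male C57BL/6J mice, 5 weeks old at the start, was sequenced from the 3′ ends of mRNA (QuantSeq), with 1 library per mouse. Atopic dermatitis (AD) was induced in all 12 with 0.5% DNCB, a contact sensitizer put on the dorsal skin 3 times per week for 6 weeks. The 5 AD mice received a normal diet, and the 7 HF + AD mice (named AD+OB in the labels) a high-fat diet with 60 kcal% fat for 4 weeks before DNCB and 10 weeks in all. Mice without DNCB were not analysed here, and the model is one of chemical sensitization combined with a diet.

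Mouse skin lies on a thin sheet of skeletal muscle, the panniculus carnosus, which is made mostly of fast-twitch fibres and moves the skin. In such a fibre, myosin of the thick filament pulls on actin of the thin filament once calcium binds troponin and tropomyosin shifts on the actin. Fast and slow fibres build these parts from different genes, and calcium is stored in and released from the sarcoplasmic reticulum.

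The deposited values are read counts per gene. Totals ranged from 9746937 to 13462434 per mouse, and reads were found on 13100 to 15063 genes per AD mouse but on 15522 to 16677 per HF + AD mouse. Pearson's r between libraries, across genes, was 0.859 to 0.951 among AD mice and 0.946 to 0.977 among HF + AD mice. The part of these library differences in the values below was not tested. Levels are given as CPM, the count as a share of the library with totals scaled by TMM, and were not divided by length. They are compared between mice, and genes are set against each other only as ratios, shares or sums within a library. Of the 45 genes, 41 had enough counts for the fit across all genes, and Myl2, Myl3, Tnnt1 and Tnnc1 did not.

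All 45 symbols were found in the annotation, and 37 of them had a RefSeq promoter, in 45 windows because some genes have several starts. The 250 bases before the start are printed for 4 genes that the results turn on, the fast light chain Myl1 with its partner Mylpf, and Trim63 and Art5 from the turnover group. They are on GRCm38.p6, 5′ to 3′ along the gene, and the capitals mark the E-box CANNTG. The MyoD family binds E-boxes, as other factors do, and binding to the marked stretches was not tested. Myl1 (chr1:66945057-66945306, minus strand), Mylpf (chr7:127211358-127211607, plus strand) and Art5 (chr7:102100230-102100479, minus strand) each held 1 E-box, and Trim63 (chr4:134314870-134315119, plus strand) held 3.
Myl1: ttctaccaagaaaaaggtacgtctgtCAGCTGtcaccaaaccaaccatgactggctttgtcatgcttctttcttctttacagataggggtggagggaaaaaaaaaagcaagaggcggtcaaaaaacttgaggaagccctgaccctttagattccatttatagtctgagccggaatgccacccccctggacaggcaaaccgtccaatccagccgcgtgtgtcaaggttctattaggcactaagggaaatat
Mylpf: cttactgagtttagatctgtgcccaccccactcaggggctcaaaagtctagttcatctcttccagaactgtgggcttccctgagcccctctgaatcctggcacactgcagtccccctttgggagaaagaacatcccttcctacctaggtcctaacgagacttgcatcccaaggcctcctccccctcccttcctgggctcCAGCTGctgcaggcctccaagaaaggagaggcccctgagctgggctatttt
Trim63: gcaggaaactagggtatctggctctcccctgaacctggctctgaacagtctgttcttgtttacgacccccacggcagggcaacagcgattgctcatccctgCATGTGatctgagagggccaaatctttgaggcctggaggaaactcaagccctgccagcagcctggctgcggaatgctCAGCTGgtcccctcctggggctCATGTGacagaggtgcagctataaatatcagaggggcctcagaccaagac
Art5: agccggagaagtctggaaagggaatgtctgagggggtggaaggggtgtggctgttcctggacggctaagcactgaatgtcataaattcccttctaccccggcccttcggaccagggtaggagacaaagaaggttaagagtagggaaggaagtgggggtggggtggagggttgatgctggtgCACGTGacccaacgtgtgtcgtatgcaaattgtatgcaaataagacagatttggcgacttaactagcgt
On both strands, an E-box was found in 37 of the 45 windows (82.2%), against 66.2% of all 32851 promoter windows of the same length. The MEF2 site was in 17.8% against 2.92%, the CArG box in 13.3% against 1.47%, the M-CAT motif CATTCC in 26.7% against 12.6% and the TATA box TATAAA in 17.8% against 12.4%. These motifs were searched separately, and a base can belong to more than one. Of the 4 genes shown, none had a MEF2 site or a CArG box in this window, and Myl1, Trim63 and Art5 had an M-CAT motif.

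Muscle reads made up a small part of each library, with a lower median share in HF + AD than in AD. The 45 genes took 0.511%, 0.636%, 0.310%, 0.402% and 0.436% of the counts in AD mice 1 to 5, and between 0.248% and 0.499% in the HF + AD mice (median 0.335%). The groups overlapped, since HF + AD mouse 6 (0.499%) lay above 3 of the AD mice. HF + AD mice 1 (0.387%), 2 (0.357%) and 4 (0.335%) lay above AD mouse 3. The log2 ratio of the summed level was -0.49. The SD between mice within a group, pooled over both groups, was 0.38 (12 mice). Fewer muscle fibres in the sample and less RNA per fibre cannot be told apart in bulk skin.

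Across the 41 genes, the median log2 fold change (HF + AD over AD) was -0.49, with a range from -2.90 to 1.09, and 31 of them (75.6%) were below 0, against a median of 0.023 and 48.3% below 0 over all 14163 genes tested. Without AD mouse 2, the median was -0.23 and 29 of the 41 were below 0. In the edgeR fit across all genes, at an adjusted p under 0.05, 8 of the 41 were called lower, where 4.77% of all genes were, and 1 was called higher, where 4.43% were. The groups did not overlap for 4 genes that were lower and for 1 that was higher, against 2.56% and 2.90% of all genes. An unadjusted p under 0.05 (edgeR) was found for 16 of the 41 and for 3551 of all 14163 genes tested. As the genes were selected on this contrast, nothing is read from these counts. The number called lower was 5 without AD mouse 1, AD mouse 2 or HF + AD mouse 2, 4 or 7. Among all 1303 genes called, 48.1% were higher in HF + AD, and this share was 58.9% with library totals alone and 35.0% after a correction for GC content.

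**Figure D1:**
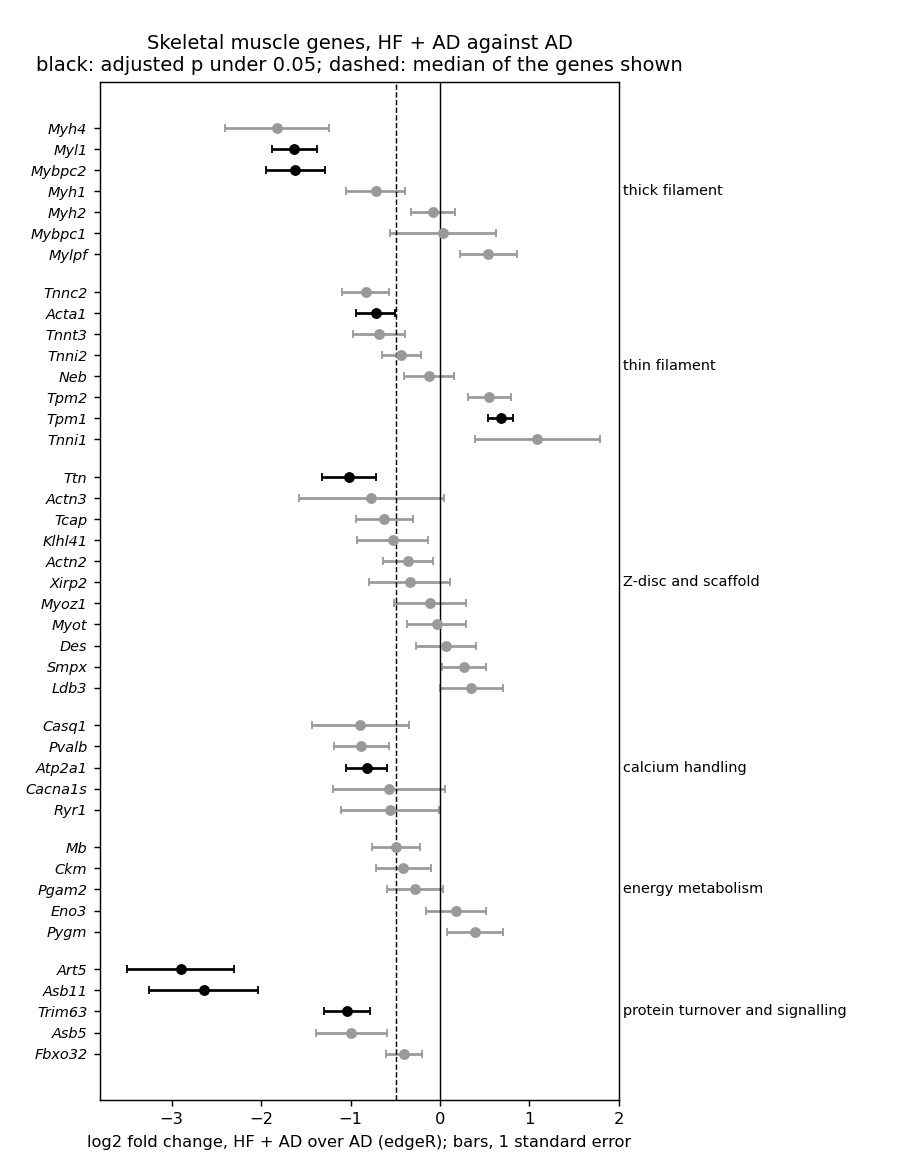
Log2 fold change of each of the 41 tested muscle genes (points, HF + AD over AD, 5 and 7 mice) with 1 standard error, grouped by role, where black marks genes called in the edgeR fit across all genes and the dashed line the median of the genes shown. The points lie mostly left of 0, with Art5 (-2.90) and Asb11 (-2.64) farthest to the left and Tnni1 (1.09) farthest to the right.

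In the thick filament, the myosin light chain Myl1 was lower in every HF + AD mouse, while its partner Mylpf was not. Myl1, which encodes the fast essential light chains (mouse chromosome 1), was at 858, 1153, 407, 558 and 798 CPM in the AD mice. In the HF + AD mice it was at 160 to 395 CPM (median 209), and its log2 fold change was -1.63 (SE 0.25), or 3.09-fold lower. All 7 HF + AD mice thus lay below the lowest AD mouse. Mylpf, the fast regulatory light chain that sits on the same myosin heads, was at 114, 115, 30.2, 66.5 and 71.2 CPM in the AD mice and at 62.1 to 172 CPM (median 123) in the HF + AD mice. Its groups overlapped, and the log2 fold change was 0.54 (SE 0.32).

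The ratio of these light chains was noticed after the values were seen. Myl1 counts were 7.50, 10, 13.5, 8.38 and 11.2 times Mylpf counts in the AD mice. In the HF + AD mice the ratio was 1.21, 1.08, 3.50, 1.52, 5.21, 2.30 and 2.59, so that the groups did not overlap. On the log2(CPM + 1) scale, the mean log2 ratio was 3.29 ± 0.32 (SD, n = 5) in AD and 1.10 ± 0.82 (SD, n = 7) in HF + AD. A ratio within a library does not depend on its total, and it shows unequal change, not which of the genes moved.

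**Figure D2:**
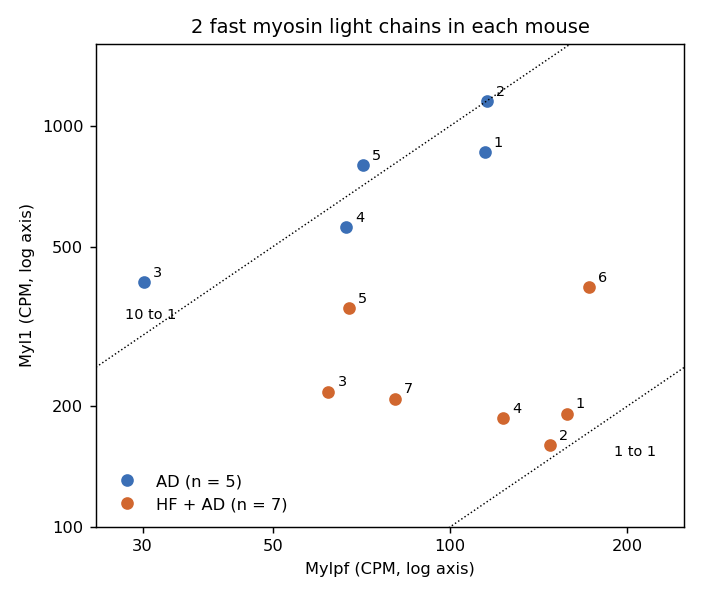
Level of Myl1 against that of Mylpf (both in CPM, log axes) in each of the 5 AD and 7 HF + AD mice, numbered by mouse, with dotted lines at ratios of 10 to 1 and 1 to 1. The AD mice lie near the upper line and all HF + AD mice below them, HF + AD mice 1 and 2 close to the lower line.

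The fast myosin heavy chains Myh1, Myh2 and Myh4 are neighbours on chromosome 11 (GRCm38, from 67171027 to 67260446). Their transcripts share 34 to 72 sequences of 50 bases within the last 500, so that reads could be assigned to the wrong one. Myh4, the chain of the fastest fibres, was at 176, 476, 118, 123 and 34.1 CPM in the AD mice and at 8.79 to 99.9 CPM (median 60.7) in the HF + AD mice. AD mouse 5 lay below 4 of the HF + AD mice, and the log2 fold change was -1.82 (SE 0.58), or -1.10 without AD mouse 2, whose level was the highest. Myh1 was at 246 to 403 CPM in AD and at 57.1 to 431 CPM in HF + AD (median 146). In HF + AD, 6 of 7 mice lay below every AD mouse for Myh1, and mouse 6 lay above all of them. Myh2 overlapped between groups, at 63.3 ± 10.9 (SD, n = 5) and 60.0 ± 25.3 CPM (SD, n = 7), with a log2 fold change of -0.078 (SE 0.25).

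Among the reads on these heavy chains, Myh4 took 26.9%, 59.4%, 27.8%, 24.3% and 8.22% in the AD mice and between 3.44% and 49.4% in the HF + AD mice (median 10.9%). The 95% Wilson intervals are narrow (58.3% to 60.5% for AD mouse 2) but cover counting error only, and the spread between mice of a group was far wider. HF + AD mice 3 and 5, at 49.4% and 34.8%, lay above 4 of the 5 AD mice. Myh2 took 6.54% to 18.2% in AD and 11.8% to 35.4% in HF + AD, and Myh1 34.0% to 73.6% and 28.2% to 77.3%.

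**Figure D3:**
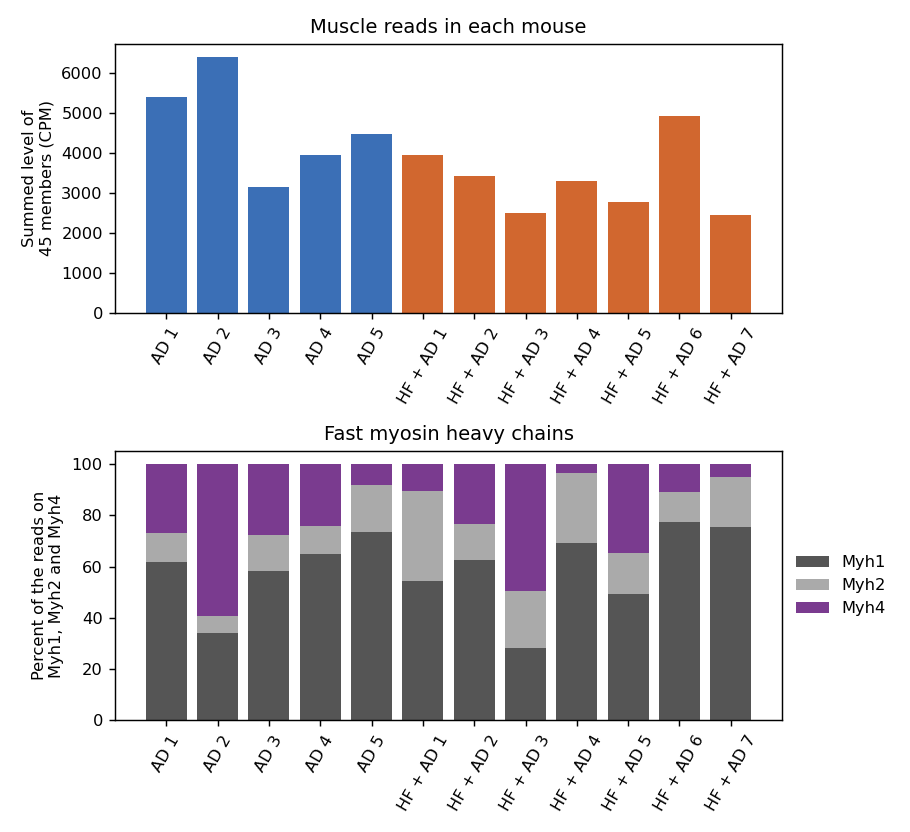
Upper panel, summed level of the 45 genes (CPM) in each of the 5 AD (blue) and 7 HF + AD mice (orange). Lower panel, percent of the reads on Myh1, Myh2 and Myh4 that fell on each; the Myh4 part is tallest in AD mouse 2 (59.4%) and HF + AD mouse 3 (49.4%), and both panels overlap between groups.

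Mybpc2, the fast form of myosin-binding protein C that tethers myosin heads, was lower in every HF + AD mouse, at 4.66 to 12.9 CPM (median 8.55) against 17.4, 59.7, 20.4, 22.0 and 21.6 CPM in the AD mice. AD mouse 2 stood far above the others, and the log2 fold change was -1.62 (SE 0.33). The slow form Mybpc1 was at 11 ± 12.5 (SD, n = 5) and 11.3 ± 4.88 CPM (SD, n = 7), and its log2 fold change was 0.033, or 1.01 without AD mouse 1. The slow and cardiac light chains were almost absent, with at most 3 counts of Myl2 in any mouse, and Myl3 at 0 in 4 mice of each group.

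In the thin filament, 5 of the 8 genes tested were below 0 (median -0.28), and edgeR called Acta1 lower and Tpm1 higher and none of the others. Acta1, the actin of skeletal muscle, was at 666, 871, 475, 685 and 881 CPM in the AD mice and at 285 to 668 CPM (median 383) in the HF + AD mice, with 4 of 7 below every AD mouse and a log2 fold change of -0.72 (SE 0.22). Tnnc2, the fast troponin C that binds calcium, had a log2 fold change of -0.83 (SE 0.26). Tnnt3, which anchors troponin to tropomyosin, had one of -0.68 (SE 0.29) and the inhibitory Tnni2 one of -0.43 (SE 0.22), and for all 3 troponins 3 of 7 HF + AD mice lay below every AD mouse. None of the 3 was called by edgeR or limma, and DESeq2 called Tnnc2 only. Neb, the giant protein that runs along the thin filament, was at 58.2 ± 10.7 (SD, n = 5) and 53.4 ± 25 CPM (SD, n = 7).

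Tpm1, a tropomyosin that covers the myosin-binding sites of actin, was the only one of the 41 genes called higher. It was at 556, 538, 424, 545 and 393 CPM in the AD mice and at 635 to 1064 CPM (median 764) in the HF + AD mice, every one above all AD mice, with a log2 fold change of 0.68 (SE 0.14). Tpm1 is also expressed by smooth muscle, fibroblasts and epithelium, and the counts per gene do not separate its isoforms. Its level did not follow the other muscle genes over the 12 mice (r = -0.23). Tpm2, also shared with smooth muscle, was at 51.6 ± 16.6 (SD, n = 5) and 75.7 ± 29.5 CPM (SD, n = 7), and overlapped. Without Tpm1 and Tpm2, 31 of 39 genes were below 0 and the median was -0.53.

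The slow troponins were rare. Tnni1 was at 3.90, 0, 3.43, 3.36 and 2.71 CPM in the AD mice and at 2.75 to 9.22 CPM (median 6.35) in the HF + AD mice, where 5 of 7 lay above every AD mouse, and the log2 fold change was 1.09 (SE 0.70). Tnnt1 was at 0 in 2 mice of each group and Tnnc1 in 3 AD and all 7 HF + AD mice, where a count of 0 allows up to 3 counts, or 0.223 to 0.308 CPM. With 14 fast and 5 slow genes summed, the log2 ratio of fast to slow read counts was 7.94, 8.89, 8.61, 9.07 and 9.01 in the AD mice and 7.02 to 7.98 in the HF + AD mice. The mean difference was -1.17 (pooled SD within groups 0.40). The groups overlapped by 1 mouse, as HF + AD mouse 3 (7.98) lay above AD mouse 1 (7.94). On the log2(CPM + 1) scale the difference was -1.13 (pooled SD within groups 0.33) and the groups, at 7.81 to 8.70 and 6.86 to 7.61, did not overlap, so that the separation rests on the pseudocount. The slow sum holds only 34 to 116 counts per mouse. Its genes are Tnni1, Tnnt1, Tnnc1, Myl2 and Myl3, and the slow form Mybpc1 is not among them. Mean CPM was higher in HF + AD for Tnni1 (2.68 in AD, 5.71 in HF + AD) and Myl2 (0 and 0.0442). It was lower for Tnnt1 (1.95 and 0.597), Myl3 (0.689 and 0.165) and Tnnc1 (0.370 and 0). The slow side rests mostly on Tnni1 in most mice, but not in AD mice 1 and 2. AD mouse 1 had 43 counts of Tnni1, 38 of Myl3 and 35 of Tnnt1. AD mouse 2 had 59 of Tnnt1, 10 of Tnnc1 and 0 of Tnni1, so that the ratio sets unlike mixes of slow genes side by side. Of the fast genes, 13 of 14 were below 0, with a median of -0.80, and without AD mouse 2 these were 11 of 14 and -0.52.

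**Figure D4:**
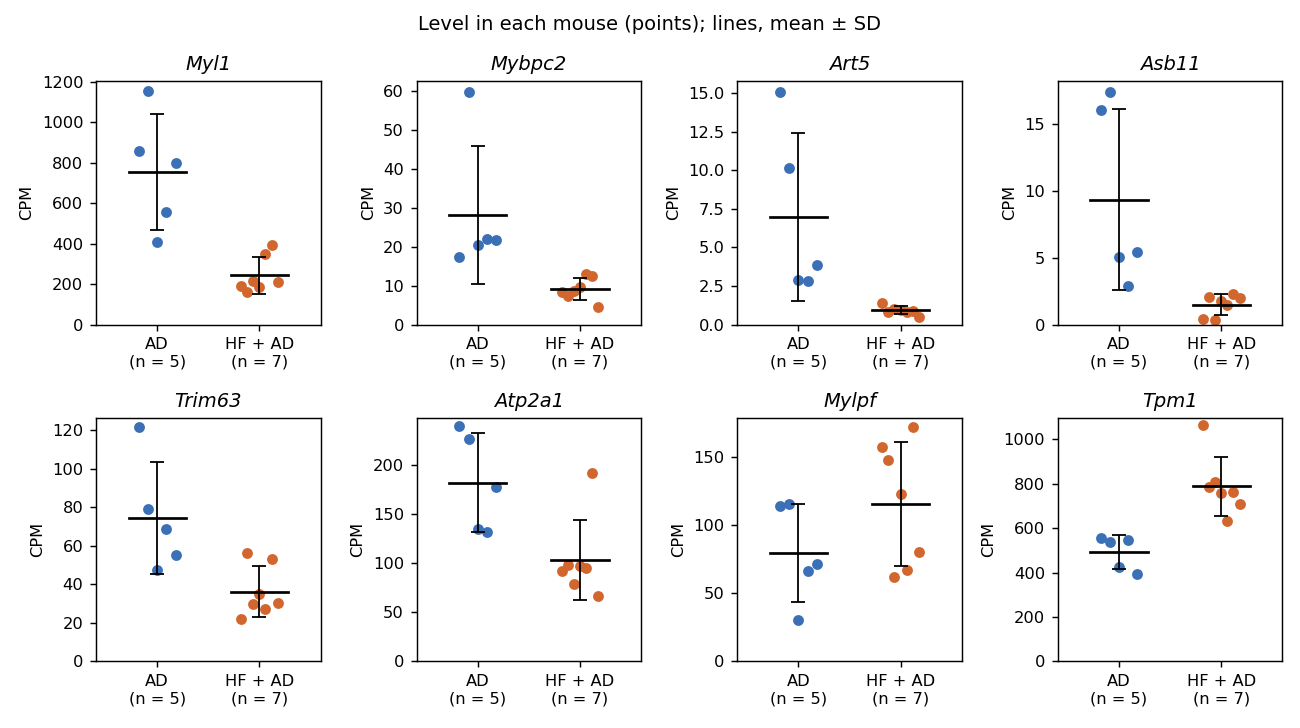
Level (CPM, axes from 0) of 8 muscle genes in each mouse (points), with lines at the mean ± SD of 5 AD and 7 HF + AD mice. Groups are separate for Myl1, Mybpc2, Art5 and Asb11 (AD above) and for Tpm1 (HF + AD above), and overlap for Trim63, Atp2a1 and Mylpf.

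Of the 11 Z-disc and scaffold genes, 8 were below 0, with a median of -0.34, and without AD mouse 2 these were 6 and -0.028. Ttn was the only one called by edgeR and by limma, DESeq2 called 0 of the 11, and over all fits Ttn was called in 10 of 22. Ttn, the spring that spans from Z-disc to M-line, was at 253, 266, 171, 162 and 271 CPM in the AD mice and at 43.1 to 235 CPM (median 104) in the HF + AD mice. Among these, 6 of 7 lay below every AD mouse and mouse 6 did not, and the log2 fold change was -1.02 (SE 0.30). Tcap, which caps titin at the Z-disc, and Klhl41, which stabilizes nebulin, had log2 fold changes of -0.62 (SE 0.32) and -0.53. The actin cross-linkers Actn2 and Actn3 were at -0.36 and -0.77, where Actn3 was at 0.101 to 15.7 CPM in AD alone and its value was 0.25 without AD mouse 2. Xirp2, an actin-binding repair protein, was at -0.34. The values of Myoz1 (-0.11), Myot (-0.034) and the intermediate filament Des (0.067) lay near 0, and those of Smpx (0.27) and Ldb3 (0.35) above it.

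All 5 calcium-handling genes were below 0, with a median of -0.82. Atp2a1, the pump SERCA1 that returns calcium to the reticulum of fast fibres, was at 239, 227, 135, 131 and 178 CPM in the AD mice and at 67.1 to 192 CPM (median 94.9) in the HF + AD mice. HF + AD mouse 6 (192 CPM) was the only one within the AD range, and the log2 fold change was -0.82 (SE 0.23). Pvalb, the calcium buffer of fast fibres, followed the same order, with 6 of 7 HF + AD mice below every AD mouse and a log2 fold change of -0.88 (SE 0.31). Casq1, which stores calcium in the reticulum, was at -0.89 (SE 0.54), the release channel Ryr1 at -0.56 (SE 0.55) and its voltage sensor Cacna1s at -0.57 (SE 0.63). These 3 varied widely within AD, as Ryr1 ranged from 4.76 to 44.1 CPM, and Casq1 was at -0.089 without AD mouse 2.

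The energy genes showed no common direction. Mb, the oxygen store of muscle, had a log2 fold change of -0.49 (SE 0.27), Ckm, the muscle creatine kinase, one of -0.41 (SE 0.31), and the glycolytic Pgam2 one of -0.28 (SE 0.31). Eno3, the muscle enolase, was at 0.18 (SE 0.34) and Pygm, which breaks down glycogen, at 0.39 (SE 0.31). Without AD mouse 2, the median of the 5 moved from -0.28 to 0.15. None of the 5 was called by edgeR, DESeq2 or limma, 0 had an unadjusted p under 0.05, and in each the groups overlapped.

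The protein turnover and signalling genes had the lowest median of the groups (-1.04), with all 5 below 0. Art5, an ADP-ribosyltransferase, was at 15.0, 10.1, 2.93, 2.83 and 3.89 CPM in the AD mice and at 0.526 to 1.39 CPM (median 0.897) in the HF + AD mice, a log2 fold change of -2.90 (SE 0.60). Asb11, an adaptor of a ubiquitin ligase, was at 16.0, 17.4, 5.05, 2.92 and 5.43 CPM in AD and at 0.362 to 2.28 CPM (median 1.74) in HF + AD, a log2 fold change of -2.64 (SE 0.61). Neither gene overlapped between groups, but both were rare, with 7 to 18 counts of Art5 and 5 to 28 of Asb11 per HF + AD mouse. For both genes, AD mice 1 and 2 were far above AD mice 3 to 5.

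Trim63, the ubiquitin ligase MuRF1 that marks sarcomere proteins for degradation, was at 122, 79.1, 47.3, 68.7 and 55.2 CPM in the AD mice and at 22.3 to 56.1 CPM (median 30.4) in the HF + AD mice. HF + AD mice 2 and 6 reached into the AD range, and the log2 fold change was -1.04 (SE 0.26). Fbxo32, the ligase atrogin-1 that is known to rise with Trim63 in wasting muscle, was at 72.9 ± 22.6 (SD, n = 5) and 55.3 ± 10.5 CPM (SD, n = 7), with a log2 fold change of -0.40 (SE 0.20), and was not called. Asb5, another ligase adaptor, was at -0.99 (SE 0.40), with 5 of 7 HF + AD mice below every AD mouse.

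The 41 genes varied together from mouse to mouse. Over 12 mice, the median Pearson's r between their pairs was 0.42, against 0.0035 between pairs of 13200 genes with a mean count of at least 20. It was 0.51 within the 5 AD mice and 0.58 within the 7 HF + AD mice, where the group difference plays no part. These correlations are descriptions, since all genes of a library share its depth and the amount of muscle in its sample. The part of either was not tested. Each gene's r with the mean of the others was highest for Tnni2 (0.96), Tnnc2 (0.94), Tcap (0.93), Ckm (0.92) and Atp2a1 (0.90). It was low for Tpm1 (-0.23), Tnni1 (-0.27), Mybpc1 (0.0035), Myot (0.089) and Tpm2 (0.11). Within the HF + AD mice alone, it rose to 0.90 for Tnni1, 0.75 for Mybpc1 and 0.75 for Myot. For other genes it was smaller there than over 12 mice. It went from 0.63 to 0.26 for Myl1, from 0.46 to 0.084 for Myh4 and from 0.40 to 0.18 for Casq1. For Asb11 it went from 0.68 to 0.30 and for Art5 from 0.68 to 0.39.

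**Figure D5:**
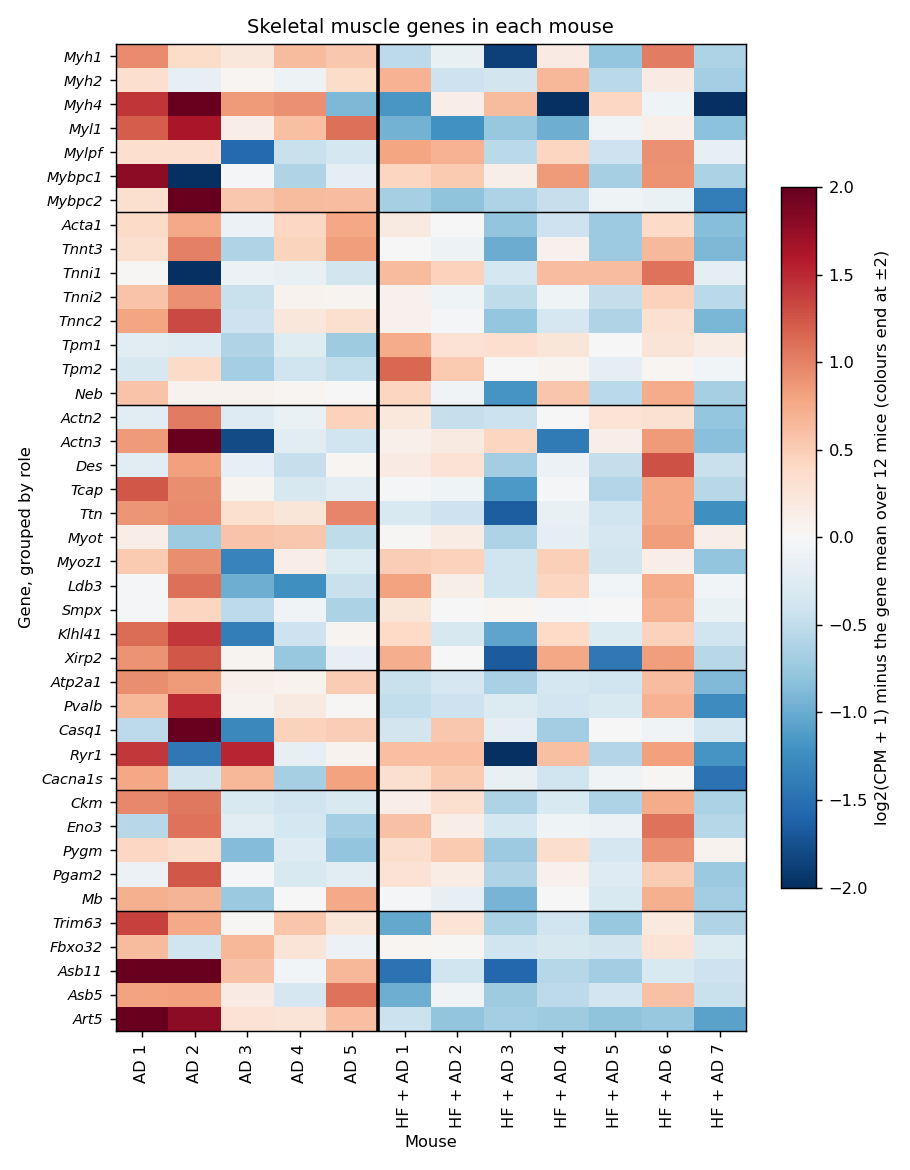
Level of the 41 tested muscle genes in each mouse as log2(CPM + 1) minus the gene's mean over 12 mice (red above, blue below, colours end at 2 in either direction), with genes grouped by role and a line between AD and HF + AD mice. AD mice 1 and 2 and HF + AD mouse 6 are red in most rows, HF + AD mice 3 and 7 are blue in most, and in the Tpm1 row the HF + AD mice are higher than the AD mice.

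The spread within groups was larger for the muscle genes than for other genes, with a median SD of log2(CPM + 1) of 0.64 in AD and 0.53 in HF + AD, against 0.53 and 0.33 over all genes tested. Across genes, the log2 fold change was related to transcript GC content with r = 0.12 over 13619 genes and r = 0.015 over the 41 muscle genes, whose median GC content was 53.7% against 50.2%. Outside the muscle lists, the genes whose level most resembled the mean of the muscle genes over 12 mice, among 13079, were Apobec2 (r = 0.92), Pla2g4f (0.91), Lmf2 (0.90), Rbfox1 (0.88) and Ttpal (0.87), then Grhl3, Txlnb, Fam120c, Asah2 and Kansl1l (0.86 to 0.81). Apobec2 was at 66.9 CPM on average in AD and 28.9 in HF + AD.

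Other genes of the same structures, and the markers of other tissues below, were listed by their known function. These lists were also made with earlier results of these data known, so that their calls and adjusted p are descriptions. Of 25 further sarcomere genes tested, 20 were below 0 (median -0.53), and without AD mouse 2 these were 16 and -0.19. The only call by edgeR was Tpm3, which rose (log2 fold change 0.77, SE 0.18, adjusted p = 0.0166), and DESeq2 and limma called Tpm3 and Myom2. Tpm3 is, like Tpm1, a tropomyosin made in many cell types. Myom2, an M-line protein, had a log2 fold change of -0.86 (adjusted p = 0.0662 with edgeR, 0.0352 with DESeq2 and 0.0467 with limma). Myoz3, Flnc and Murc, which belong to the Z-disc and its membrane contacts, were at -1.37, -1.10 and -0.80 without a call by any of the 3 tools, and Flnc was at 0.068 without AD mouse 2. The slow myosin Myh7 had at most 2 counts in any mouse. Of 16 triad and calcium release genes, 13 were below 0 (median -0.32) and none was called by edgeR, DESeq2 or limma. An unadjusted p under 0.05 (edgeR) was found for 4 of the 16, and for 3551 of all 14163 genes tested. Cacng1, the gamma subunit of the calcium channel of muscle, was at 10.4 to 19.4 CPM in AD and 0.826 to 10.3 in HF + AD, without overlap, but its adjusted p was 0.117 (edgeR). Trdn, which links the release channel to calsequestrin, was at -0.90, and Jph1, which holds the triad together, at -0.67. Atp2a2, the pump of slow fibres and of many other cells, was at 551 ± 60.7 (SD, n = 5) and 560 ± 39.7 CPM (SD, n = 7).

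Of 23 further energy genes, 10 were below 0 (median 0.048). Cox6a2, the muscle and heart form of a cytochrome c oxidase subunit, rose by a log2 fold change of 1.06 (SE 0.32, adjusted p = 0.0449, edgeR), and Hk2, the hexokinase of muscle, fat and epithelium, by 0.59 (SE 0.17, adjusted p = 0.0403, edgeR). Both overlapped between groups. Leaving out 1 mouse at a time, Cox6a2 remained called in 4 of 12 fits and Hk2 in 5 of 12, and after the GC correction neither was called (adjusted p = 0.0599 and 0.0741, edgeR). The log2 fold changes of Ampd1 and Fbp2, enzymes of fast fibres, were -1.24 and -1.39, and that of the mitochondrial coactivator Ppargc1a was 0.80. None of these was called by edgeR or limma, DESeq2 called Ampd1 (adjusted p = 0.0435), and Fbp2 was at -0.50 without AD mouse 2.

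At the nerve-muscle contact, 4 of 12 genes were tested, and Chrnb1, a subunit of the acetylcholine receptor, fell. It had 73, 63, 80, 63 and 72 counts in the AD mice and 30, 18, 31, 24, 39, 28 and 21 in the HF + AD mice, with no overlap and a log2 fold change of -1.58 (SE 0.46, adjusted p = 0.0388, edgeR). Chrna1, the subunit that binds acetylcholine, was at -0.20 (SE 0.72). The call for Chrnb1 held in 3 of 12 fits that left out 1 mouse, with adjusted p (edgeR, DESeq2 or limma) between 0.00191 and 0.267 over the alternatives. Of 11 membrane and costamere genes, 8 were below 0 (median -0.32, or -0.07 without AD mouse 1), and Dmd, which encodes dystrophin, fell by 0.76 on the log2 scale (SE 0.23, adjusted p = 0.0485, edgeR), a call that held in 3 of 12 such fits and with DESeq2 but not with limma (adjusted p = 0.0661). In the opposite direction lay Dysf, a membrane repair protein, at 3.27 ± 1.51 (SD, n = 5) and 8.45 ± 3.22 CPM (SD, n = 7) with an adjusted p of 0.0633 with edgeR, 0.0158 with DESeq2 and 0.0478 with limma.

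Several genes of muscle formation were rare, but not all. Mef2c was at 80.6 CPM on average in AD and 63.8 in HF + AD, and Mef2a at 49.9 and 52.8. Of 15 regulators and satellite cell genes, 14 were found in the count tables and 7 were tested. Of these 7, 5 were below 0 (median -0.34) and none was called by edgeR, DESeq2 or limma. An unadjusted p under 0.05 (edgeR) was found for 1 of them, and for 3551 of all 14163 genes tested. Pax7, which marks satellite cells, had 0 counts in all 12 mice, and Myod1 and Myog had at most 37 and 14 counts per mouse. Vgll2, a cofactor of the muscle transcription factors, was at -1.35 with an adjusted p of 0.103 (edgeR), and at -0.46 without AD mouse 2. Of 6 developmental genes, 3 were tested and 0 were called by edgeR, DESeq2 or limma or had an unadjusted p under 0.05, and Chrng, the fetal receptor subunit, had 0 counts in all mice.

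Other tissues did not share one direction with the muscle genes. The heart markers Myh6 and Myl7 had 0 counts in all 12 mice, and none of the 3 heart markers tested was called by edgeR (2 at an unadjusted p under 0.05, and Tnni3 called by DESeq2 and by limma). The summed level of 9 smooth muscle genes was 129 to 308 CPM in AD and 164 to 252 in HF + AD, with 4 of 9 below 0 and none called by edgeR, DESeq2 or limma (3 at an unadjusted p under 0.05). Keratinocyte markers summed to 3308 to 5834 CPM in AD and 5815 to 10239 in HF + AD, with 3 of 7 tested below 0 and a median of 0.12. Of these, Krt5, Krt14 and Krt15, the keratins of the basal layer, rose (log2 fold change 0.81, 1.05 and 1.21, adjusted p = 0.00679, 0.0248 and 0.0150, edgeR), while Krt1, Krt10, Lor and Ivl of the upper layers were at 0.12, -0.42, -0.29 and -0.24 without a call. Krt14 lost its call without AD mouse 2, 3 or 4 and after the GC correction (adjusted p = 0.0525, edgeR). Of 8 endothelial genes, 2 were below 0 (Cldn5 at -0.25 and Emcn at -0.21; median 0.34), and Cdh5 and Kdr rose (log2 fold change 1.56 and 1.06, adjusted p = 0.0284 and 0.0243, edgeR). Leaving out 1 mouse kept the call for Cdh5 in 7 of 12 fits and for Kdr in 10. Of 11 adipocyte genes tested, 4 were below 0 (Cidec at -0.77, Retn at -0.67, Adipoq at -0.54 and Fabp4 at -0.21; median 0.12). The lipases Lipe and Pnpla2 rose (0.95 and 0.85, adjusted p = 0.0456 and 0.0204, edgeR). Leaving out 1 mouse kept the call for Lipe in 4 of 12 fits and for Pnpla2 in 11, and after the GC correction neither was called (adjusted p = 0.101 and 0.0592, edgeR). No call was made by edgeR, DESeq2 or limma among 8 fibroblast, 8 Schwann cell and 3 brown adipocyte markers (1, 0 and 1 at an unadjusted p under 0.05), and no cartilage marker had enough counts. Over all 14163 genes tested, 3551 had an unadjusted p under 0.05 (edgeR), so the counts of such markers are to be set beside that share. Over 12 mice, the r of each list's level with the mean of the muscle genes was -0.21 for keratinocytes, -0.35 for endothelium, 0.06 for adipocytes and 0.44 for smooth muscle. The part of these tissues in the muscle values was not tested.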

How the data were processed

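RNA from the skin of 12 mice (5 AD, 7 HF + AD) was sequenced from its 3′ ends (QuantSeq), 1 library each. The deposited values are raw counts of reads for each symbol, as made by the authors, and the submitters' notes name Bowtie2, bedtools and mm10, without roles or versions. Strand use and removal of duplicates are not given in the sources used here. With no molecular identifiers, intervals cover counting error only. Replicates are single mice, and 35 symbols listed more than once were kept apart.

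The members and lists were chosen with earlier results of these data known. Groups were compared with edgeR 4.0.16 in R 4.3.3 (TMM, filterByExpr, quasi-likelihood, condition as the only term, Benjamini-Hochberg over 14163 genes). CPM used TMM-scaled totals (factors 0.944 to 1.04), and log2 values a pseudocount of 1. Alternatives used DESeq2 1.42.0 and limma 3.58.1, and other steps Python 3.11.15. On counts simulated with a coefficient of variation of 0.2 for every gene, 190 of 200 changed genes were called, and 10 unchanged ones. That spread was not taken from these mice, whose median SD of log2(CPM + 1) was 0.53 in AD and 0.33 in HF + AD. The simulation therefore does not give the share of real changes found in these data. Named genes are the 45 members, up to 4 genes per list with the largest change at a mean count of at least 20, defining markers, and the 10 most similar genes. Other genes named (Tpm3, Atp2a2, Hk2, Dmd, Tnni3, Krt1, Lor, Ivl, Cldn5, Emcn, Retn, Adipoq, Fabp4 and those of the myogenic list) were chosen after their values were seen. Positions and GC content come from GENCODE M21 (GRCm38), and promoters from RefSeq (GRCm38.p6).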

Additional observations from a re-analysis of the deposited data

Results flagged for a closer look

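Of 86 sets of values examined, each from the mice of 1 group, 6 had a mouse that stood apart by Dixon's criterion, where chance gives about 1 in 20. All values are log2(CPM + 1). In AD mouse 2, Mybpc2 was 5.92 (others 4.20 to 4.52), Eno3 5.97 (4.20 to 4.67) and Pgam2 5.77 (4.23 to 4.50), while Tnni1 was 0 (1.89 to 2.29). In AD mouse 1, Neb was 6.29, where the other AD mice were at 5.71 to 5.79. In HF + AD mouse 6, Atp2a1 was 7.60, where the others were at 6.09 to 6.64. AD mouse 2 accounts for 4 of the 6, and it also had the largest share of muscle reads and of Myh4 and the lowest total count.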

How the results depend on the processing

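The number of genes called was 1303 and ranged from 639 to 1461 when 1 mouse was left out, being lowest without mouse 2 (639), 1 (686) or 4 (794) of HF + AD and mouse 2 of AD (803). The number of muscle genes called lower (8) ranged from 5 to 11 in these fits, and the number called higher was 1 in each. With the replicate block, 192 genes were called in all, and 4 muscle genes were called lower. The replicate numbers do not pair the mice: deviations of same-numbered mice correlated with r between -0.11 and 0.072, and 1 of 5 AD mice was most like its own number. Myl1 and Tpm1 were called in 22 of 22 fits, Mybpc2 and Trim63 in 21 of 22, Asb11 and Art5 in 20 of 21, but Atp2a1 in 14, Acta1 in 11 and Ttn in 10 of 22. The median log2 fold change of the muscle genes lay between -0.66 and -0.23 (the latter without AD mouse 2), the log2 ratio of their sum between -0.63 and -0.36, and that of fast to slow between -1.28 and -1.05. DESeq2's Wald test called 1945 genes and limma-trend 1558. The median over all genes moved from 0.023 to 0.12 without a filter, 0.15 with limma-trend and 0.14 with the block. The GC correction in 20 bins and the fast to slow ratio of read counts (-1.17) were added after the data were seen, and the former called 10 muscle genes lower. Where a count moved, the cause was not tested. Depth limits the precision for Art5, Asb11 and the slow genes, and the values describe these 12 mice of 1 strain.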
